A study of Mus musculus with 18 samples.

Results

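The gene expression of 4 iPSC clones made with Oct4, EpCAM and EpEX (OE + EpEX) was compared with that of mouse embryonic fibroblasts (MEFs, 3 samples), the cell type from which the clones had been derived. These 7 arrays, of 18 in the series, are all those labelled OE + EpEX iPSCs or MEFs, and every probe set other than the 64 controls was compared, 45037 in all. The MEFs were isolated at E13.5 from mice labelled with 2 strain names, one being B6.129S4-POU5f1tm2Jae/J, with GFP at the Oct4 locus, and the other that of a strain with the doxycycline-dependent transactivator rtTA (rtTA*M2) at the Rosa26 locus. The same strain label is given to all 18 samples, the mESCs included. For the OE + EpEX group, such MEFs received PiggyBac plasmids that express Oct4 and EpCAM under doxycycline (1.5 μg/mL for 21 days), and they were treated with EpEX, the extracellular domain of EpCAM. The series also holds 4 clones made with Klf4 in place of Oct4 (KE + EpEX), 4 clones made with Oct4, Sox2, Klf4 and c-Myc (OSKM) and 3 mouse embryonic stem cell clones (mESCs). Each OE + EpEX sample is 1 picked clone, so the values show the spread between clones, and the labels call the MEF samples biological replicates while the series design speaks of a single primary culture. P-values therefore measure only the spread between the samples of this series, all 18 arrays of which entered the fit. Whether the MEFs and the clones were of the same sex was not tested, and levels of Xist and Ddx3y are given below. The culture media also differed between the groups, with LIF and a serum replacement for iPSCs and fetal bovine serum for MEFs, and the effect of the medium cannot be told apart from that of reprogramming.

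Fibroblasts are mesenchymal cells that secrete collagen and other matrix proteins and carry the transcription factors of their place in the embryo. During reprogramming they silence this program, pass through a mesenchymal-to-epithelial transition in which E-cadherin is switched on, and activate the network around Oct4, Sox2 and Nanog that keeps embryonic stem cells undifferentiated. Genes of germ cells that are held silent by DNA methylation in fibroblasts are also expressed in mouse pluripotent cells. A clone in which part of the fibroblast program is still read is commonly called incompletely silenced.

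The deposited values are log2 levels in which the median over the 18 arrays is 0 for each probe set, a group of probes that reads a transcript. Since 15 of the 18 arrays are of pluripotent cells, a level near 0 is the usual level of these cells, whether or not the transcript is expressed there. The root mean square log2 difference between OE + EpEX clones was between 0.223 and 0.427 over all probe sets, and that between an OE + EpEX clone and a MEF sample was between 1.18 and 1.44. MEF samples 2 and 3 differed by 0.236, whereas sample 1 differed from them by 0.864 and 0.883. MEF sample 1 therefore stands apart, and values against it are given beside the results that rest on it.

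In limma, 10860 probe sets passed a Benjamini-Hochberg adjusted p of 0.05 and differed by 1 log2 unit or more between OE + EpEX iPSCs and MEFs, which is 24.1% of those tested. Of these, 5769 (12.8%) were higher and 5091 (11.3%) were lower in OE + EpEX. When the arrays were given equal distributions (quantile normalization), 2326 differed, of which 61.4% were higher, against 53.1% of the 10860. Symbols were given only for lists in which the authors had placed probe sets that were 10-fold or more from the MEF mean in all 15 other arrays, and these hold 361 gained and 326 lost genes with a single symbol. The genes named below were thus chosen by the difference from MEFs, and that difference is given as a description with no test. That the clones lie apart from the MEFs for these genes also follows largely from the choice. Over all probe sets, OE + EpEX and MEF values did not overlap for 44.2%. The probe set closest to the limit was 10.03-fold from the MEF mean in its nearest array in both lists. Outside the gained list the nearest value was 9.97-fold, whereas 485 probe sets met the limit on the lost side and 471 of them were listed, the largest value outside the list being 30.8-fold.

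Of the transfected genes, Pou5f1 (1417945_at), which encodes Oct4, had log2 levels of 0.02, −0.17, 2.18 and −0.32 in OE + EpEX clones 1 to 4 and of −3.27, −3.62 and −4.13 in MEF samples 1 to 3. All 4 clones lay above the MEFs, and clone 3 stood above the other clones. The mean was 0.43 ± 1.18 (SD, n = 4) in OE + EpEX and −3.68 ± 0.43 (SD, n = 3) in MEFs, a 17.2-fold difference. Epcam (1416579_a_at), which encodes EpCAM, had levels of 0.26, 0.09, 0.53 and 0.39 in the clones and of −7.03, −7.62 and −7.42 in the MEFs. The groups were 204-fold apart, and the clones lay close together. Which part of each transcript the probes read is not known here, so transfected and endogenous RNA cannot be told apart.

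The gained genes with the largest differences were led by genes of the pluripotency network. Nanog (1429388_at), a homeodomain factor of the network, had levels of 0.09, 0.26, 0.26 and 0.33 in OE + EpEX clones 1 to 4 and of −9.52, −9.79 and −9.82 in MEF samples 1 to 3. It was 986-fold higher in OE + EpEX, the largest value of any gained gene against the mean of the 3 MEF samples. Dppa5a, an RNA-binding protein of pluripotent cells, was 802-fold higher and Tdgf1, the Nodal co-receptor Cripto, 746-fold higher. The next were Bex1 (688-fold), Cdh1 (463-fold), Fgf4 (415-fold), Rhox5 (342-fold), Trap1a (333-fold), Zfp42 (310-fold), Dppa2 (308-fold), Morc1 (291-fold), Crxos1 (252-fold), Fbxo15 (246-fold), Upp1 (232-fold) and Mageb16 (229-fold). Over these 15 genes the OE + EpEX levels lay between −0.53 and 1.52 and the MEF levels between −10.27 and −7.40. In 13 of the 15, clone 4 was within 0.25 of the mean of clones 1 to 3. The exception above 1 was Crxos1, a homeobox gene, at 1.52 in clone 4 and 0.04, 0.11 and −0.53 in clones 1 to 3.

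**Figure D1:**
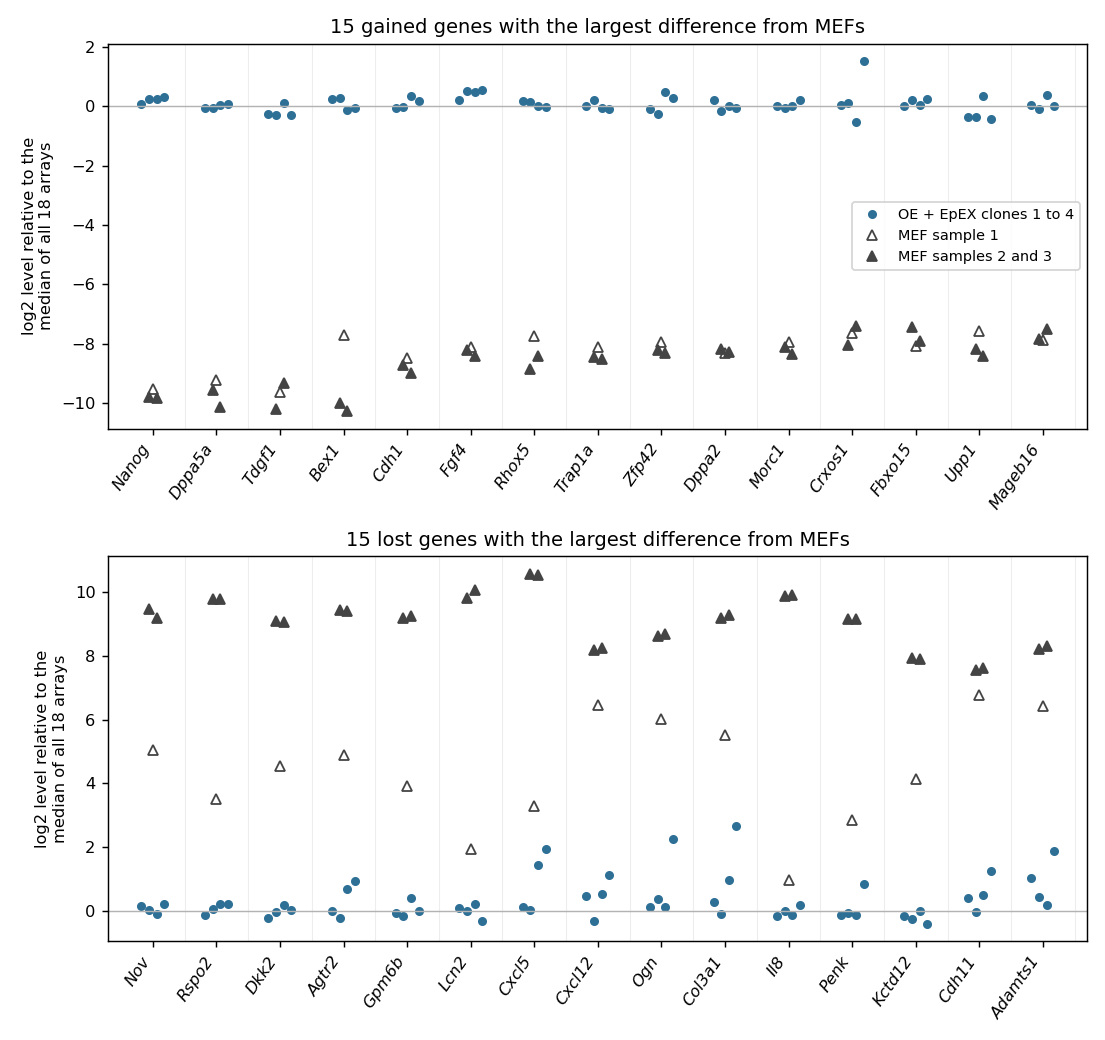
Log2 levels of the 15 gained (top) and the 15 lost (bottom) genes with the largest differences, as 1 point for each of the 4 OE + EpEX clones (left to right, clones 1 to 4) and the 3 MEF samples. The gained genes are between −10.27 and −7.40 in all 3 MEF samples, whereas for most lost genes MEF sample 1 lies between the clones and MEF samples 2 and 3.

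All 8 core pluripotency factors that the lists name, of 12 looked for, were gained, with a median difference of 7.75 (4.11 to 9.95). Besides those above they were Sall4 (7.23), a zinc finger partner of Oct4, Nr0b1 (6.47), a nuclear receptor also called Dax1, and Sox2 (6.35), the DNA-binding partner of Oct4. Sox2 was at −8.41 in MEF sample 1 and at −5.24 and −5.26 in samples 2 and 3, and at 0.02, −0.05, 0.36 and −0.15 in the clones. Sox2 and Nanog had not been transfected in this group. Neither passed against mESCs in limma, at −0.33 (adjusted p = 0.788) and 0.28 (adjusted p = 0.257), where the spread of the MEF samples enters the test.

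Naive pluripotency genes, which mark the ground state of mouse stem cells, were gained in 17 of 17 named cases, of 22 looked for, with a median difference of 6.13 (4.17 to 8.70). Esrrb, an orphan nuclear receptor, had levels of −0.15, −0.15, −0.22 and 0.06 in the clones and of −6.58, −6.53 and −6.45 in the MEFs. The difference of Prdm14, a repressor of lineage genes, was 6.05. Klf5 and Tbx3 stood closer to the clones in MEF sample 1, at −2.93 and −2.58, than in samples 2 and 3, at −5.33 and −5.22 and at −5.72 and −4.92. The clones were not alike for all of these genes. Dppa3, a maternal factor also called Stella that protects DNA methylation in the zygote, was at −0.02, 0.03, 1.12 and 2.23 in clones 1 to 4. Clone 4 was thus the highest for Dppa3.

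Of 10 formative and primed pluripotency genes, which rise when stem cells prepare to differentiate, 4 were named and all were gained, with a median difference of 5.29. Otx2, a homeobox factor of the epiblast, varied most, from −1.43 in clone 2 to 1.17 in clone 3. Dnmt3b, a de novo DNA methyltransferase, was at 1.12, 0.59 and 0.71 in clones 1 to 3 and at −0.18 in clone 4. The MEF levels of both genes were between −6.14 and −4.41, below every clone.

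Epithelial genes named in the lists, 9 of 27 looked for, were all gained, with a median difference of 5.15 (4.01 to 8.85). Cdh1 (1448261_at), which encodes E-cadherin, had levels of −0.06, −0.01, 0.36 and 0.18 in the clones and of −8.48, −8.73 and −9.00 in the MEFs. The claudin Cldn4 of the tight junction differed by 5.94 and the protease inhibitor Spint1 by 5.15. Of the desmosome, Dsg2 differed by 6.87, Dsp by 4.52 and Pkp2 by 4.24. Pkp2 was at −1.08 in MEF sample 1 against −6.23 and −5.34 in the others, so that its difference rests on samples 2 and 3. In clone 4, 0 of the 9 were at least 1 log2 unit above the mean of clones 1 to 3.

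Germline and chromatin genes were gained in 18 of 18 named cases, of 30 looked for, with a median difference of 6.25 (3.90 to 8.42). Of the X-linked genes, Rhox5, a homeobox gene, and Trap1a, a tumor antigen, are among the 15 above. Stk31, a Tudor domain kinase, differed by 7.20 and Mael, a factor of the piRNA pathway, by 6.26. Dnmt3l, the cofactor of the de novo DNA methyltransferases, was at 1.14, 0.82, 0.79 and −0.06 in the clones and at −6.46, −6.15 and −5.90 in the MEFs. Sycp3, a component of the synaptonemal complex, was at −0.37, 0.09, −0.47 and −0.04 against −4.91, −4.37 and −4.62, and Slc25a31, the testis form of the mitochondrial ADP/ATP carrier, at 0.07, −0.06, −0.23 and −0.16 against −4.23, −4.20 and −4.30. Every clone was above every MEF sample for these genes, which the choice of the lists largely sets, and clone 4 was the lowest of the clones for Dnmt3l. Uhrf1, which maintains DNA methylation at replication, differed by 4.92, with MEF sample 1 at −3.20 and samples 2 and 3 at −5.76 and −5.86.

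Promoter sequences from RefSeq (GRCm38.p6) were matched to 273 of the 361 gained and 237 of the 326 lost genes, as windows from 250 bases before to 50 bases after a transcription start. The letters CACGTG, an E-box, read the same on both strands and were in 8 of the 24 windows of the 17 matched germline and chromatin genes (33.3%, 7 genes). They were in 9.44% of the windows of gained genes, 3.76% of those of lost genes and 7.15% of all 32817 windows. Of these genes, 4 are printed, chosen after their values were seen, since their promoters share these letters. The 250 bases before the start, 5′ to 3′ on the strand of the gene, with CACGTG and TATAAA (the latter on either strand) in capitals, were:
Mael, chr1:166238745-166238994, minus strand: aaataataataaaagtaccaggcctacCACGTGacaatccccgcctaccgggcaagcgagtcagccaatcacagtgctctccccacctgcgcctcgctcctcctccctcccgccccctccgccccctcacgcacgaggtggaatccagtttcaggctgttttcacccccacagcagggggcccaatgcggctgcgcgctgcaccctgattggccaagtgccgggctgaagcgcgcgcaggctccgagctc
Slc25a31, chr3:40708621-40708870, plus strand: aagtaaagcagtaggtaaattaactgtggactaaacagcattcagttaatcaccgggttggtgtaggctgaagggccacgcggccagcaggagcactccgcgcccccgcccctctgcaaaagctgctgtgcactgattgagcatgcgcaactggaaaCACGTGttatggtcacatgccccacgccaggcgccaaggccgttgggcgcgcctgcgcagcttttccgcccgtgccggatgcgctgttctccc
Sycp3, chr10:88459337-88459586, plus strand: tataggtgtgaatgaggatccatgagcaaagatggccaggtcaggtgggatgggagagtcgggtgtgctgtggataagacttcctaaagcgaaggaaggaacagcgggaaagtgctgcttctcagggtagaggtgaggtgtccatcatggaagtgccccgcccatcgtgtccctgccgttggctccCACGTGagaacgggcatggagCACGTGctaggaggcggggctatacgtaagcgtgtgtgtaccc
Stk31, chr6:49395289-49395538, plus strand: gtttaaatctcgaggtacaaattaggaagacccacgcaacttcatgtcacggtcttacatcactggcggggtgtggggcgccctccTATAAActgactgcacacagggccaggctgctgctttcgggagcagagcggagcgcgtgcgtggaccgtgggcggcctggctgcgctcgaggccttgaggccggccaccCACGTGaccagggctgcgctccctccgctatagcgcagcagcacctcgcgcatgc
The E-box stood once in the sequences of Mael, Slc25a31 and Stk31, and 2 copies lay in that of Sycp3. A match is a description of the sequence and does not show that a factor bound there. The letters CCAAT (either strand) were in 48.1% of the windows of gained genes, 30.1% of those of lost genes and 37.4% of all windows.

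Many genes of the fibroblast program were among the lost genes, while others are not in the lists, which hold 2.10% of all probe sets. Of 31 contractile and cytoskeletal genes looked for 0 were named, and of 16 fibroblast surface markers 2 were, both lost. Against the mean of the 3 MEF samples, the largest differences among lost genes were those of Nov, a matricellular protein (227-fold lower in OE + EpEX), Rspo2, a secreted activator of Wnt signaling (195-fold), Dkk2, a Wnt antagonist (190-fold), and Agtr2, an angiotensin receptor (189-fold). Rspo2 had levels of 3.52, 9.78 and 9.80 in MEF samples 1 to 3 and of −0.13, 0.08, 0.23 and 0.21 in OE + EpEX clones 1 to 4. The clones lay together, and the MEF samples did not. Others of these 15 genes were Gpm6b (170-fold), Lcn2 (155-fold), Cxcl5 (152-fold), Cxcl12 (146-fold), Ogn (134-fold), Col3a1 (131-fold), Il8 (124-fold), Penk (121-fold), Kctd12 (117-fold), Cdh11 (112-fold) and Adamts1 (110-fold). The iron-binding protein Lcn2 was at 1.95 in MEF sample 1 against 9.82 and 10.06, the neutrophil chemokine Cxcl5 at 3.30 against 10.58 and 10.53, and the chemokine listed as Il8 at 0.97 against 9.89 and 9.91. For these 3 inflammatory genes the MEF mean was thus set by samples 2 and 3. The order of the lost genes also depends on sample 1. Against samples 2 and 3 the differences of Lcn2 (−9.94), Il8 (−9.93), Rspo2 (−9.70) and Cxcl5 (−9.67) exceeded that of Nov (−9.26), and against sample 1 those of Cdh11 (−6.25) and Cxcl12 (−6.02) exceeded that of Nov (−4.96).

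Against MEF sample 1 alone the median difference of the 326 lost genes was 3.48, and it was 5.37 against samples 2 and 3. Of the lost genes, 148 were under 10-fold and 24 under 1 log2 unit from MEF sample 1, compared with 5 under 10-fold from samples 2 and 3. The 24 included the acute-phase genes Lbp, Hp and Serpina3n, the complement protease C1s, the matrix genes Adamts2 and Fbln7, and Hoxd13. Of the 361 gained genes, 80 were under 10-fold and 0 under 1 log2 unit from MEF sample 1, with medians of 4.32 and 4.999. The gained genes thus held against each MEF sample at this limit, and the lost genes did not.

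Mesenchymal regulators were lost in 8 of 8 named cases, of 21 looked for, with a median difference of −4.87. Twist1, a basic helix-loop-helix factor of the mesenchyme, had levels of 3.39, 5.61 and 5.503 in the MEFs and of 0.22 and −0.13 in clones 1 and 2, −0.00069 in clone 3 and 0.69 in clone 4. Snai2 and Zeb2, repressors of Cdh1, differed by −5.03 and −5.13, and Prrx1, a homeobox factor of limb mesenchyme, by −5.33. Cdh11, the mesenchymal cadherin, was at 0.39, −0.04, 0.51 and 1.24 in the clones and at 6.77, 7.58 and 7.63 in the MEFs, and differed by −6.80. Clone 4 had the highest level of 7 of these 8 genes, and Twist2 was the exception. None of the 8 was 1 log2 unit above the mean of clones 1 to 3.

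Receptor tyrosine kinases were split. Pdgfra and Pdgfrb, the PDGF receptors of mesenchyme, and Egfr differed by −4.70, −5.77 and −4.16, and Kit, the stem cell factor receptor of pluripotent and germ cells, by 5.54. Kit was at −0.10, 0.04, 0.09 and 0.17 in the clones and at −5.25, −5.33 and −5.89 in the MEFs. In the list of STAT3, LIF and HIF2 alpha signaling, the single named gene of 16 looked for was Osmr, the oncostatin M receptor, which differed by −5.84.

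Of the collagens, 7 of 16 were named and all were lost, with a median difference of −5.48 (−7.04 to −4.73). Col1a1 (1423669_at) encodes the main chain of type I collagen and had levels of 5.49, 5.19 and 5.15 in the MEFs and of 0.18, 0.08, 0.29 and 1.61 in clones 1 to 4. Of other matrix proteins and matrix enzymes, 16 of 35 were named and all were lost, with a median of −5.13. These included Postn (−6.38), Lum (−5.62) and Dcn (−5.44), secreted proteins of connective tissue, the metalloproteases Mmp2 (−5.85) and Mmp3 (−6.40), and the protease inhibitor Timp2 (−4.61). Of 52 secreted signals and immune genes, 18 were named and all were lost, with a median of −5.20, among them the insulin-like growth factor Igf1 (−5.33), Wnt5a (−5.99) and the BMP antagonist Grem1 (−5.03).

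The 4 named Hox and positional genes, of 39 looked for, were lost in all clones alike. Hoxa10, a homeobox gene of posterior and limb mesenchyme, was at −0.13, −0.33, 0.10 and −0.18 in the clones and at 2.52, 6.11 and 6.02 in the MEFs. Hoxd13, which patterns the most distal limb, was at −0.09 in MEF sample 1 and at 6.58 and 6.72 in samples 2 and 3, with the clones between −0.35 and 0.19. The difference of Hoxd13 was −6.74 from samples 2 and 3 and 0.01 from sample 1, so it had no direction against the latter. The median excess of clone 4 over the other clones for these 4 genes was −0.01.

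**Figure D2:**
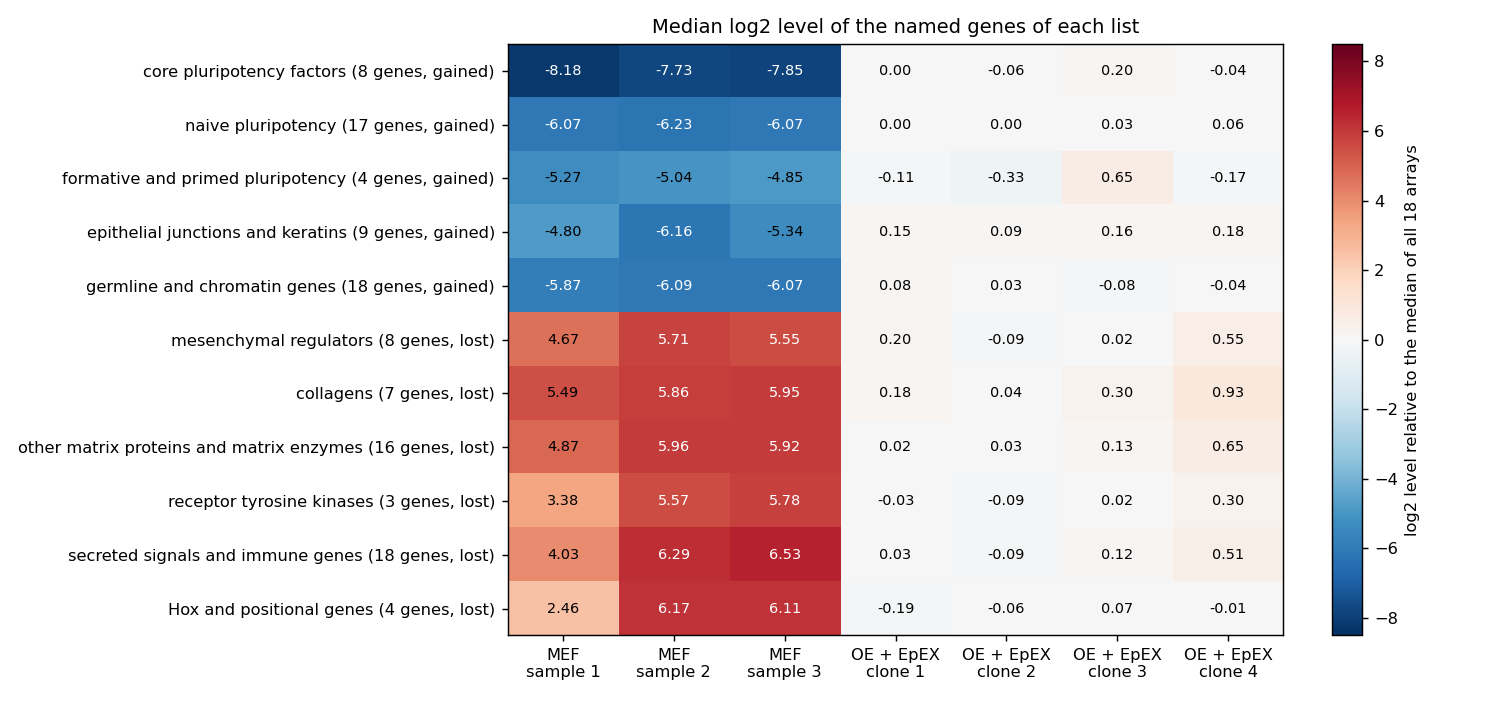
Median log2 level of the named genes of each list (rows) in each of the 3 MEF samples and the 4 OE + EpEX clones (columns), for lists with at least 3 named genes. Medians of the gained lists lie between −0.33 and 0.65 in the clones, both extremes being those of the formative and primed list (clones 2 and 3), and among the lost lists collagens stand at 0.93 in clone 4 against 0.18, 0.04 and 0.30 in clones 1 to 3, and Hox and positional genes at −0.01.

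Clone 4 differed from the other clones for a part of the lost genes. Over the 471 lost probe sets, the median level minus the mean of the other clones was −0.05, −0.20 and −0.10 in clones 1 to 3 and 0.39 in clone 4. Clone 4 was the highest of the 4 clones for 326 of them (69.2%), where it was the highest for 27.4% of all probe sets. At least 1 log2 unit above the mean of clones 1 to 3 were 62 of the 471 lost probe sets, or 13.2%, compared with 1.42% of all 45037 probe sets, while clones 1, 2 and 3 were that far above the others for 2, 0 and 2. By gene, 39 of the 326 lost genes (12.0%) were at least 1 log2 unit higher in clone 4, 116 were within 0.25, and Egr1, an immediate early gene, was the only one at least 1 lower. Among the 4620 probe sets called lower in OE + EpEX that are not in the lists, clone 4 was the highest for 2282 (49.4%) and at least 1 log2 unit above clones 1 to 3 for 227. Of the 361 gained genes, 10 (2.77%) were at least 1 above, compared with 1.42% of all probe sets, and 7 (1.94%) were at least 1 below, compared with 0.371% of all probe sets, while 203 were within 0.25.

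Collagen III stood furthest. Col3a1 (1427884_at) had levels of 0.27, −0.09, 0.96 and 2.67 in clones 1 to 4 and of 5.51, 9.19 and 9.28 in the MEFs, so that clone 4 held 2.51% of the MEF mean and clones 1 to 3 held 0.511%. The share in clone 4 was 14.0% of MEF sample 1 and 1.06% of MEF samples 2 and 3. Ptx3, a long pentraxin induced by inflammatory signals, was at 0.23, −0.0046, 0.51 and 2.53, and Ogn, the small leucine-rich proteoglycan osteoglycin, at 0.13, 0.37, 0.12 and 2.24. Clone 4 was apart from the other 3 clones for each of these, by 2.29, 2.29 and 2.04. Both Ogn probe sets gave this, with an excess of 2.04 and 2.29.

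Next were Antxr2, an anthrax toxin receptor that binds matrix (1.93 above the mean of clones 1 to 3), Osmr (1.73), the membrane protein Emp3 (1.71), Timp2 (1.70), Col6a1 (1.56), the proteoglycan Aspn (1.56) and the chemokine Cxcl1 (1.53). The 4 probe sets of Timp2 were higher in clone 4 by between 1.12 and 2.20, whereas the 2 of Cxcl1 differed, at 0.53 and 1.53. Osmr was at 0.48, 0.36, 0.53 and 2.19 in clones 1 to 4. Aqp1, a water channel (1.53), Lrrc17 (1.50), the AP-1 factor Fosl2 (1.48), the syndecan Sdc2 (1.47), the IL-33 receptor Il1rl1 (1.45), the glutathione transferase Mgst1 (1.44), Col1a1 (1.43), Cxcl5 (1.40), Parp3 (1.39) and the TEAD cofactor Vgll3 (1.38) complete the 20 genes with the largest excess. In these 20 genes the level of clone 4 was between 1.19 and 2.67 and was under that of MEF sample 1 in all 20. Clone 4 held between 1.36 and 9.93% of the MEF mean of these genes, and clones 1 to 3 between 0.511 and 3.53%. These shares depend on the MEF sample, since clone 4 held between 3.38 and 38.8% (median 10.6%) of MEF sample 1 and between 0.255 and 8.97% (median 3.04%) of MEF samples 2 and 3. The widest gap was that of Cxcl5, at 38.8% and 0.255%. The lists leave out any probe set with over 10% of the MEF mean left in any of the 15 arrays, so 10% is a ceiling that the choice of genes sets. For 25 further probe sets clone 4 was the only 1 of the 15 arrays to exceed it, with between 10.2 and 17.8% left, and none of these has a symbol here. The same held for 1 or 2 probe sets in each of OE + EpEX clones 1 to 3 and for 75 in KE + EpEX clone 1.

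**Figure D3:**
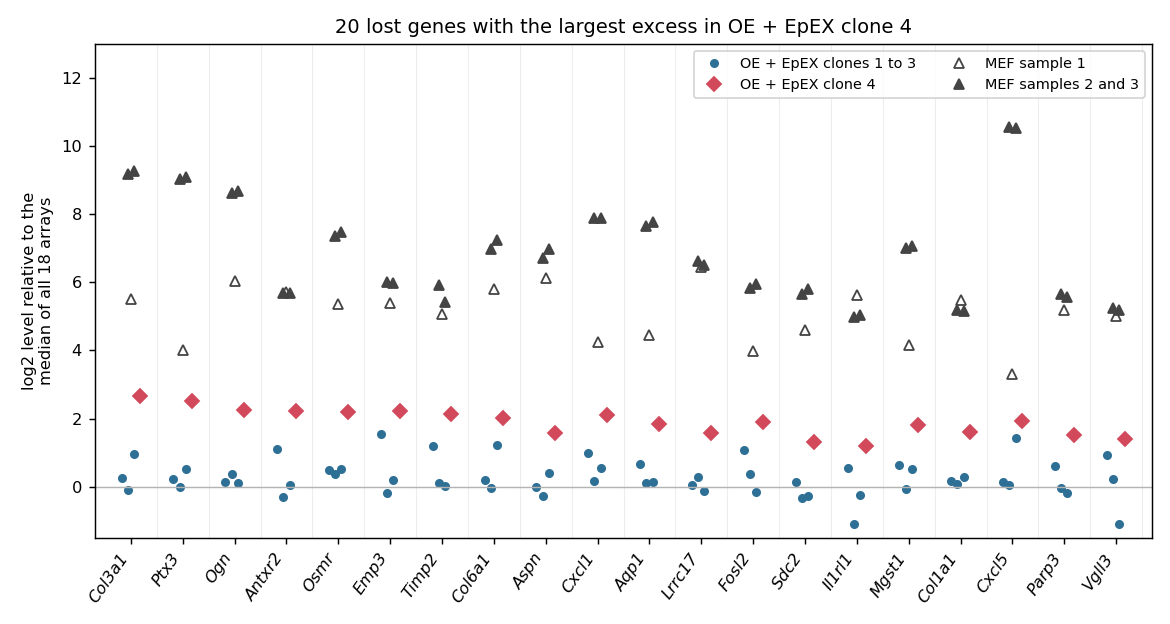
Log2 levels of the 20 lost genes with the largest excess of clone 4 over the mean of clones 1 to 3, with OE + EpEX clones 1 to 3 as circles, clone 4 as diamonds and MEFs as triangles. Clone 4 is above clones 1 to 3 for all 20 genes, by the choice of the genes, and below all 3 MEF samples.

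By list, 4 of 7 collagens, 6 of 16 other matrix genes and 4 of 18 secreted and immune genes were at least 1 log2 unit higher in clone 4, and 0 of 8 mesenchymal regulators and 0 of 4 Hox and positional genes were, compared with 12.0% of all lost genes. With so few genes no difference between lists was read from these counts, and the mesenchymal regulators had a median excess of 0.65. Relative to the mean of clones 1 to 3, clone 4 was at −0.64 for Mmp3, −0.41 for Lcn2 and −0.38 for Twist2. Of the 15 most reduced genes, 4 (Cxcl5, Ogn, Col3a1 and Adamts1) were at least 1 log2 unit higher in clone 4 and 4 (Nov, Rspo2, Dkk2 and Gpm6b) were within 0.25. Genes that MEFs expressed most strongly relative to the clones thus fell on both sides. Over the 471 lost probe sets the excess of clone 4 correlated with the MEF mean minus the mean of clones 1 to 3 with r = 0.399 (Spearman's rho = 0.407), where both measures share the values of clones 1 to 3 and probe sets are not independent replicates. With MEF sample 1 alone the values were 0.464 and 0.485, and with MEF samples 2 and 3 they were 0.170 and 0.148.

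The iPSCs had been plated with feeder cells, which in this study are treated MEFs, and whether feeders were removed before RNA was isolated is not given in the sources used here. In bulk RNA, fibroblasts in the sample, a few cells of the clone that still express these genes and low expression in all cells cannot be told apart. The 9 fibroblast markers with a symbol (Col1a1, Col3a1, Pdgfra, Pdgfrb, Postn, Lum, Dcn, Twist1 and Prrx1, of 12) had a mean level of −0.01, −0.21, 0.49 and 1.07 in clones 1 to 4 and of 4.44, 6.52 and 6.58 in the MEFs. All 8 pluripotent markers were gained, with means of −0.05, −0.10, 0.42 and 0.01 in the clones. Xist, the X inactivation RNA, which was at 4.91, 6.51 and 5.72 in the MEFs, was at −0.30, −0.06, 0.23 and 0.08 in the clones. Its 3 probe sets were higher in clone 4 by between 0.13 and 0.93. The Y-linked Ddx3y was at 0.02, 0.14, −0.04 and −0.06 in the clones, and at −1.79, −5.80 and −5.31 in the MEFs. Whether the MEFs and the clones differed in sex was not tested. For X-linked and Y-linked genes, such a difference cannot be told apart from an effect of reprogramming. The part of feeder cells in the clone 4 levels was not tested. Of short lists of markers of macrophages, endothelium, muscle, neural cells, endoderm and trophoblast, 0 were named in either list. In longer lists, Laptm5 of blood cells, Pecam1 of endothelium and Tfap2c of trophoblast were gained, with differences of 4.60, 4.29 and 4.48. These genes were likewise high in the mESCs, at levels between −0.43 and 0.31 against −5.13 to −2.81 in the MEFs. Their gain is thus not particular to the clones.

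Col3a1 and Ogn, chosen after their values were seen, are printed as the lost genes with the largest clone 4 excess whose promoters hold the letters TATAAA. The 250 bases before the start, with TATAAA on either strand in capitals (overlapping copies run together), were:
Col3a1, chr1:45311288-45311537, plus strand: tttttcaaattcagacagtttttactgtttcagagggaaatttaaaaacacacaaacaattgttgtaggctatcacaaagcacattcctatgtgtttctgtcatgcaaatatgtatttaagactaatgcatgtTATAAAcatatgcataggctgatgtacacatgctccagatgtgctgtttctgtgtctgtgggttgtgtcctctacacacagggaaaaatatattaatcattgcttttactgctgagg
Ogn, chr13:49607765-49608014, plus strand: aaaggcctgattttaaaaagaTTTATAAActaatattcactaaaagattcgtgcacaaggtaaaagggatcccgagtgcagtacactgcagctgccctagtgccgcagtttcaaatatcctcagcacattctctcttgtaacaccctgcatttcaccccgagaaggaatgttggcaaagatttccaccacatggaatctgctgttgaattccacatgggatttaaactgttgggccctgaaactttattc
The copy of Col3a1 began 117 bases before the start and those of Ogn 229 and 227 bases before it. These letters were in 10 of the 39 windows of the 29 matched genes that were at least 1 log2 unit higher in clone 4 (25.6%), in 14.4% of the windows of all lost genes and in 13.6% of all windows. The median number of CG pairs in a window was 8 for the former, 14 for lost genes, 17 for gained genes and 7 for all windows. These shares are a description of small and overlapping sets.

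The lost probe sets were also compared with the mean of the OSKM clones, which the clone 4 values do not enter. At least 1 log2 unit above it were 30, 9, 22 and 116 of the 471 lost probe sets in OE + EpEX clones 1 to 4 (24.6% for clone 4), and 15, 8 and 16 in the mESC clones. In KE + EpEX clones 1 to 4 the numbers were 163, 41, 0 and 11, so that another reprogrammed clone, KE + EpEX clone 1, held more of them than OE + EpEX clone 4. The share of all probe sets this far above the OSKM mean is not given here, and the arrays differed in spread. The SD of all log2 levels was 0.322 in OE + EpEX clone 4 and 0.309 in KE + EpEX clone 1. It was 0.211 to 0.238 in OE + EpEX clones 1 to 3, 0.251 to 0.293 in KE + EpEX clones 2 to 4 and 0.393 to 0.422 in the mESC clones.

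**Figure D4:**
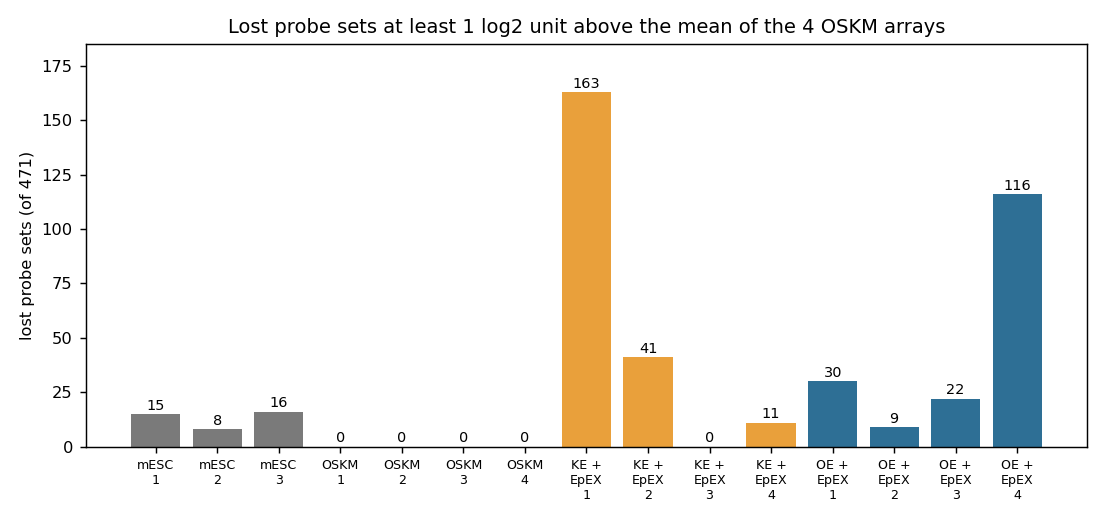
Number of the 471 lost probe sets at least 1 log2 unit above the mean of the 4 OSKM arrays (vertical axis), for each array other than the MEFs; the OSKM arrays themselves set the mean. OE + EpEX clone 4 (116) and KE + EpEX clone 1 (163) stand above all others.

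The 39 lost genes with an excess of at least 1 in OE + EpEX clone 4 were for the most part also high in KE + EpEX clone 1. That array did not enter the excess of clone 4, but the 10-fold limit of the lists applied to it as to the other arrays, so genes with more than 10% of the MEF mean left in it are not among the 39. In KE + EpEX clone 1, 35 of the 39 (89.7%) were at least 1 log2 unit above the OSKM mean, against 25.1% of the other 287 lost genes. In KE + EpEX clone 2 it was 15 of the 39 (38.5% against 5.23%), in clone 3 it was 0 and in clone 4 it was 1. Col3a1 was at 3.01, 1.58, −0.54 and −0.60 in KE + EpEX clones 1 to 4, and Ptx3 at 3.004, 2.20, −0.27 and −0.16. Both were thus high in KE + EpEX clones 1 and 2. Aqp1 and Il1rl1 were exceptions, at 0.29 and 0.11 in KE + EpEX clone 1 against 1.83 and 1.19 in OE + EpEX clone 4. Over the 471 probe sets the 2 measures correlated with r = 0.690 (Spearman's rho = 0.675), and with KE + EpEX clone 2 the values were 0.593 and 0.560. With KE + EpEX clone 3 they were −0.277 and −0.221. These are correlations across probe sets of single arrays and carry no test.

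**Figure D5:**
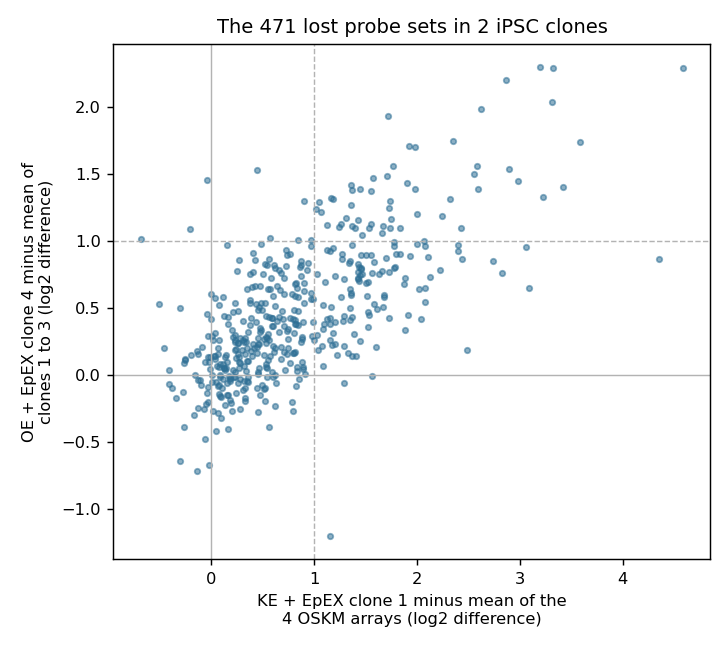
Each point is 1 of the 471 lost probe sets, with its log2 difference between KE + EpEX clone 1 and the mean of the OSKM arrays (horizontal axis) and between OE + EpEX clone 4 and the mean of OE + EpEX clones 1 to 3 (vertical axis); dashed lines mark 1 log2 unit. The points rise together (r = 0.690), and most points above 1 on the vertical axis are also above 1 on the horizontal axis.

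The clones also differed among themselves in gained genes. In clone 4 the lower ones included Gm7325, Slc7a3, Eras, Myo1f, Lin28a and Pou5f1, with values between −1.49 and −1.003 relative to the mean of clones 1 to 3. Eras, a Ras protein of embryonic stem cells, was at −0.05, −0.44 and 0.05 in clones 1 to 3 and at −1.48 in clone 4. Lin28a, which blocks let-7 processing, was at 0.38, 0.02, 0.11 and −0.84. The value for Pou5f1 came from the high level of clone 3. The higher ones were led by Dppa3 (1.85), Cidea (1.76), a lipid droplet protein, and Crxos1 (1.64). All of these levels in clone 4 were above all 3 MEF samples, which the choice of the lists largely sets.

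Whether the listed probe sets differed from other pluripotent cells was tested with limma over all probe sets. The lists were not chosen by these contrasts. They do hold only probe sets beyond the 10-fold limit from the MEF mean in every iPSC and mESC array. Probe sets that stayed near the MEF level in an OE + EpEX clone were thus left out before the test. Here and against the other iPSCs, the shares of listed and of all probe sets are therefore not directly comparable. Against mESCs, 39 of the 477 gained probe sets (8.18%) and 13 of the 471 lost probe sets (2.76%) differed, compared with 2.95% of all probe sets. All 13 of the lost probe sets were higher in OE + EpEX, while the gained ones were split, with 22 higher and 17 lower, where 1.75% of all probe sets were higher and 1.2% lower. By gene these were 31 gained and 9 lost genes. Of the lost genes, Vgll3 was higher than in mESCs by 2.70 (SE 0.473, limma adjusted p = 0.0016), with levels of 0.93, 0.23, −1.08 and 1.40 in the clones and of −2.45, −2.02 and −2.51 in the mESCs. Col6a3, a chain of type VI collagen, was higher by 1.86 (SE 0.339, limma adjusted p = 0.00222), with levels of 0.44, 0.22, 0.30 and 0.80 against −1.57, −1.69 and −0.99. Every clone was above every mESC sample for both genes, and clone 4 was the highest. Serpinf1, the antiangiogenic factor PEDF, was higher by 2.02 (limma adjusted p = 0.000903) and Pmp22, a myelin protein, by 2.26 (limma adjusted p = 0.00929). The others were Msrb3, Cyr61, Itpripl2, Phldb2 and App. Col3a1 did not pass this test, at 1.68 above mESCs with an SE of 0.921, which the spread of the MEF samples (SD 2.15) entered.

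Of the gained genes, Pou5f1 was furthest below mESCs, with a difference of −5.22 (SE 0.415, limma adjusted p = 7.73e-07) and levels of 5.62, 5.66 and 5.66 in the mESCs. The OSKM and KE + EpEX clones, between −0.26 and 0.24, were also far below the mESCs. The gained gene 2210409E12Rik was furthest above, by 4.10. Nr5a2, an orphan nuclear receptor that binds the Oct4 gene, had a difference of −1.58 (SE 0.153, limma adjusted p = 6.76e-06), at −0.05, −0.11, 0.36 and 0.45 against 1.75, 1.86 and 1.62. Cldn4 was higher by 1.78 (SE 0.293, limma adjusted p = 0.000943), Stk31 by 1.48 (limma adjusted p = 2.94e-05) and Rhox5 by 1.35 (limma adjusted p = 0.000118). The groups did not overlap for any of these. The difference of Epcam, which was part of the transfection, was 0.86, under the limit of 1, with a limma adjusted p = 0.00252. Cdh1 differed by −0.30 and did not pass (limma adjusted p = 0.288).

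Against OSKM iPSCs, 0 of the 948 listed probe sets passed in limma, where 0.0444% of all probe sets did (0.00666% higher and 0.0377% lower), and 60 gained and 44 lost ones had an unadjusted p under 0.05. Quantile normalization gave 72 probe sets, and a fit of only these 2 groups gave 20. Against KE + EpEX iPSCs 0 passed as well, of the list and of all probe sets, with 31 gained and 5 lost at an unadjusted p under 0.05. Serpinf1, at 1.34 above OSKM iPSCs with a limma adjusted p = 0.085, did not pass. In these tests the spread was common to the 5 groups, so that of the MEF samples entered. For the lost gene Nov the SE against OSKM was 0.739, with SDs of 0.130 in OE + EpEX, 0.121 in OSKM and 2.48 in MEFs. A count of 0 therefore does not show that the iPSC groups were alike.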

How the data were processed

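Affymetrix mouse expression arrays were run on 18 samples, and the 4 OE + EpEX and 3 MEF arrays are those compared here. The authors processed the arrays in GeneSpring GX, and the submitters' processing notes name MAS5 and RMA without giving a role or version. The deposited values are log2 levels of 45101 probe sets, shifted for each probe set to a median of 0 over the 18 arrays, so that signal over background is unknown and the number of arrays limits the precision. The authors' mean of the MEF arrays and the fold changes in their lists of gained and lost probe sets were not used. The labels and the study's methods differ in the RNA reagent and the dye named.

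Group means were fitted over all 18 arrays with limma 3.58.1 in R 4.3.3, since a common spread over 5 groups was wanted, and p-values were adjusted with the Benjamini-Hochberg method over 45037 probe sets, leaving out 64 controls. The call required an adjusted p below 0.05 together with a change of 1 log2 unit or more. Tested on simulated data with 200 probe sets changed by 2 log2 units, the comparison of OE + EpEX with MEFs recovered 96% with 6 false calls. The simulation gave all groups the same spread, so it does not show how the call behaves with the wider spread of the MEF samples. Of the 948 listed probe sets, 904 had a single symbol, 27 had several and 17 had none, and genes were named from those with a single symbol. Where a gene had several probe sets, the suffix _at was taken before _a_at, _s_at and _x_at and then the lowest number. The genes named were the 15 gained and 15 lost ones with the largest differences, the 20 lost ones with the largest excess of clone 4, and examples chosen by role from gene lists. Genes named outside this rule, such as those that differ from mESCs, those near MEF sample 1 and the gained genes that differ in clone 4, were chosen after their values were seen. The members and lists were chosen with earlier results of these data known. Alternatives were other thresholds, normalizations, array weights, a fit of 2 groups, the replicate number as a block, the methods' t-test and leaving out each array. Counts and figures were made in Python 3.11.15 (pandas 2.3.3, numpy 2.4.6), with scipy 1.17.1 for correlations and matplotlib 3.10.9 for drawing. Genes outside the lists carry no symbol here and were not analysed by name.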

Additional observations from a re-analysis of the deposited data

Results flagged for a closer look

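In 10 of the 146 named genes, 1 of the 4 OE + EpEX clones was far from the other 3 by Dixon's test at the 95% level, and chance alone picks out about 1 in 20 groups. Of the 10, 3 (Ogn, Osmr and Col1a1) were among the 20 genes chosen for their excess in clone 4. No chance count applies to these 3. The remaining 7 were among the other 126 genes, near the rate of 1 in 20, so no pattern was read from them. Those of the 10 that stood apart in clone 4 were lost genes with a higher level than the other clones. Ogn was at 2.24 (others 0.12 to 0.37), Osmr at 2.19 (0.36 to 0.53), Col1a1 at 1.61 (0.08 to 0.29), Penk, the enkephalin precursor, at 0.84 (−0.12 to −0.07) and Col5a2 at 0.77 (−0.06 to 0.07). Those that stood apart in clone 3 were gained genes. Pou5f1 was at 2.18 (others −0.32 to 0.02), Syce2, a synaptonemal complex protein, at 0.89 (−0.11 to −0.09), Upp1, uridine phosphorylase, at 0.34 (−0.41 to −0.34), Tdgf1 at 0.13 (−0.30 to −0.26) and Tbx3 at −0.62 (−0.04 to 0.03).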

How the results depend on the processing

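The count of probe sets that differed from MEFs was 10860 (5769 higher, 5091 lower). It was 20733 (10466 and 10267) with no fold threshold and 2326 (1429 and 897) after quantile normalization, for which the cause was not tested. Leaving out each array in turn gave between 10526 and 11794, with 5627 to 6173 higher and 4879 to 5621 lower. The median excess of clone 4 over lost probe sets, 0.39, was 0.53 after quantile normalization and 0.51 against the median of the OSKM clones. Of the listed probe sets, 52 differed from mESCs, against 91 in a fit of only those 2 groups, 99 with no fold threshold and 40 to 62 with each array left out. Against OSKM iPSCs 0 differed, against 72 after quantile normalization and 20 in a fit of only those 2 groups, and leaving out each array gave 0 to 0, as it did against KE + EpEX iPSCs. Replicate numbers do not pair the samples, since the deviations of same-numbered OE + EpEX and MEF arrays correlated at 0.108, −0.027 and 0.017. With the replicate block 10827 probe sets differed from MEFs, and 47 listed ones from mESCs. Of 1945 recomputed differences of the 146 named genes, 239 moved by over 1 SD and 1 changed sign, that of Hoxd13 against MEF sample 1 only, at 0.0061, a setting chosen after seeing the data. Quantile normalization made the differences of named genes much smaller. That of Nanog was 4.36 in place of 9.95, that of Col3a1 −1.80 in place of −7.04 and that of Timp2 −0.65 in place of −4.61. The fold values and shares of the MEF mean given above are those of the deposited values and depend on the normalization.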
